A study of Arabidopsis thaliana with 4 samples.

Results

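The chloroplast genome transcripts of Arabidopsis thaliana rosette leaves were followed across 4 RNA sequencing libraries. They were chosen by identifier, as every feature of the deposited table that begins with ATCG, which gave 133 of 33059 listed features. Of these, 47 averaged 1 TPM or more across all 4 libraries and are described by value, 29 were above 0 in at least 1 library but below that mean, and 57 were listed at 0 throughout. TPM is a transcript level per unit of length, expressed as a share of its library. Levels can be compared between genes whose RNA was captured alike, but the number of reads behind a value is unknown.

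Plants were aged 28 days and were either wild type (WT) or carried ERF4 under the constitutive cauliflower mosaic virus 35S promoter (OE), with 2 libraries per genotype. ERF4 encodes a transcriptional repressor of the ethylene response factor family, and the question asked was how its overexpression affects leaf transcripts. The labels do not say whether OE was 1 transgenic line or several, nor whether the replicates were separate plants. The p-values therefore measure the spread between these libraries alone, which may be technical. RNA was treated with DNase before library construction, per the labels' protocols, and how RNA was selected for sequencing is not given in any source used here.

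The chloroplast keeps a small circular genome that encodes part of the photosynthetic apparatus, including subunits of both photosystems, the cytochrome b6f complex, the ATP synthase, the NDH complex and the large subunit of Rubisco, and part of its own gene expression machinery. These genes are read by a plastid-encoded polymerase of bacterial type, which needs sigma factors made in the nucleus, and by phage-type polymerases that are themselves nuclear gene products. Many of the genes lie in operons, and their long precursor RNAs are cut, trimmed, spliced and edited by nuclear-encoded RNA-binding proteins. Chloroplast mRNAs as a rule lack the stable poly(A) tails of nuclear mRNAs, and short tails mark them for decay.

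The table carries no gene names. Notes in the RefSeq annotation of assembly TAIR10.1 mention a few of the 133 identifiers, each as a relative of a nuclear gene or pseudogene. Comparing the nuclear protein with the chloroplast proteins of that assembly gave ndhK for ATCG00430, cemA for ATCG00530, rpl20 for ATCG00660, clpP for ATCG00670 and rpl2 for ATCG01310, and a nuclear pseudogene gave ndhJ for ATCG00420. Over the aligned stretches, identity to the nuclear relative ran from 32.8% for cemA to 68.4% for ndhJ. The others are given by identifier alone, and nothing is said of what they encode.

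Transgene and tissue were checked first. ERF4 (AT3G15210) stood at 9.68 and 10.6 TPM in WT and at 24.5 and 28.8 TPM in OE, 2.63 times the WT mean, which did not pass the test over all genes (limma adjusted p = 0.381). The 9 leaf mesophyll markers, among them the Rubisco small subunit genes and chlorophyll a/b-binding protein genes of the nucleus, summed to 71713 and 29458 TPM in WT replicates 1 and 2 and to 38387 and 49019 TPM in OE replicates 1 and 2. Of the markers of other organs and cells, 6 flower genes summed to at most 5.53 TPM, with AP1 at 0.11 TPM or less. The 6 root genes summed to between 75.3 and 96.5 TPM and the 4 guard cell genes to between 70.3 and 95.1 TPM. Mean levels of the root genes ran from 1.30 TPM to 37.8 TPM, the highest for CASP1, so the markers do not show leaf tissue alone. Whether other tissue was included was not tested. The 11 seed genes summed to 63.6 and 77.8 TPM in WT and to 24.6 and 14.9 TPM in OE, and 1 of the 7 tested seed genes, the storage protein gene CRU3, was called lower, where limma called 0.03% of all tested features lower. SESA2 alone had 23.8 TPM in OE replicate 1; the other 10 seed genes summed to 63.4 and 66.1 TPM in WT and to 0.78 and 11.3 TPM in OE. In 5 of the 7 tested seed genes both OE libraries lay below both WT libraries, beside 14.2% of all tested features. CRU3, OLEO1 and EM1, all among these 5, passed the limit of 1 TPM through their WT values alone. Their OE means were 0.125, 0.445 and 0.265 TPM. The filter thus favoured low OE values in the 5, so their share is not a test of seed genes. The 7 leaf senescence genes summed to 72.7 and 226 TPM in WT and to 205 and 170 TPM in OE, with SAG12 listed at 0 in every library. The part of these differences in the chloroplast values was not tested.

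All chloroplast features together made up a very small part of each library. They summed to 514 and 431 TPM in WT and to 410.2 and 418 TPM in OE, which is 0.0514% and 0.0431% of the library in WT and 0.0410% and 0.0418% in OE. Both OE sums lay below both WT sums, and the means were 473 ± 58.8 TPM for WT and 414 ± 5.30 TPM for OE (SD, n = 2 each), a ratio of 0.876. An exact two-sided permutation test gave p = 0.333, the smallest value that 2 against 2 libraries allow. The order rested on ATCG00700, a feature described further on. Without ATCG00700 the sums were 471 and 344 TPM in WT against 410.2 and 418 TPM in OE, with a ratio of 1.02 and overlapping groups. Leaving out ATCG00630 as well, which held 38.3 TPM of the sum of OE replicate 1, gave 372 TPM for that library and a ratio of 0.970, again with overlapping groups. With identical features, described next, counted once, the sums were 358 and 348 TPM in WT against 281 and 298 TPM in OE. A summed TPM in bulk leaf RNA cannot tell the number of chloroplasts or green cells from the RNA per chloroplast, and how RNA was selected is not known.

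**Figure D1:**
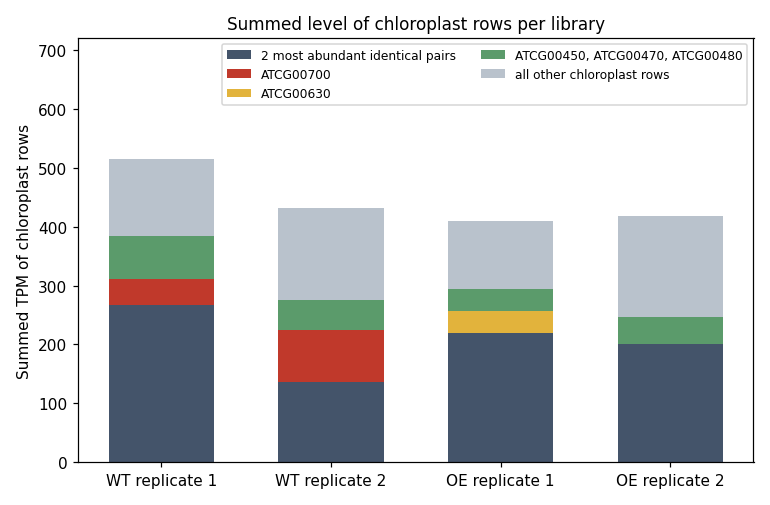
Stacked bars give the summed TPM of the 133 chloroplast features in each library, split into the 2 most abundant pairs of identical features, ATCG00700, ATCG00630, a group of 3 features and all others. ATCG00700 appears in both WT bars and in neither OE bar, and ATCG00630 in the bar of OE replicate 1.

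Without ATCG00700, the libraries stood in the same order by summed chloroplast TPM as by summed mesophyll markers. In both, WT replicate 1 was highest, followed by OE replicate 2, OE replicate 1 and WT replicate 2. The spread was wider for the nuclear genes, and the lowest and the highest library were both WT. This order was carried by the 2 most abundant pairs, described next: without those 4 features, ATCG00700 and ATCG00630, the sums were 203 and 207 TPM in WT against 153 and 217 TPM in OE, with OE replicate 2 highest and OE replicate 1 lowest.

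A few features held much of the chloroplast signal. ATCG00920 and ATCG01210 had the same value in each library, 90.8 and 42.0 TPM in WT against 72.8 and 63.2 TPM in OE. ATCG00950 and ATCG01180 likewise shared 43.1 and 26.3 TPM in WT against 36.6 and 37.0 TPM in OE. In both pairs WT replicate 1 was the highest library and WT replicate 2 the lowest, with OE between them. Together these 4 features made up 52.1% and 31.7% of the chloroplast sum in WT and 53.3% and 48.0% in OE. By mean TPM the first pair ranked 2707 among the 20010 features tested in the whole table.

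Exact pairs of this kind are a feature of this genome. The chloroplast genome holds a large inverted repeat, and 17 pairs of genes in its RefSeq annotation have the same sequence over their whole length, of which 7 are protein-coding, 7 encode transfer RNA and 3 ribosomal RNA. In the table, 8 pairs of chloroplast features above 0 had equal values in all 4 libraries, and 6 of these pairs passed 1 TPM. The 47 features therefore hold 41 distinct profiles. Among the other 19963 tested features, 16 shared all their values with another feature. Reads from such copies cannot be assigned to either copy, so each pair counts as 1 measurement. Beside the leading 2 pairs and the pairs of rpl2 and of ATCG00905, both described further on, ATCG00900 and ATCG01240 shared 2.40 and 6.14 TPM in WT against 4.87 and 4.92 TPM in OE. ATCG00840 and ATCG01300 shared 5.25 and 1.22 TPM in WT against 0.33 and 1.53 TPM in OE. In both of these pairs the 2 WT libraries lay far apart and the groups overlapped.

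Below the leading features, levels were low. The median mean level was 4.12 TPM for the 47 features, beside 15.3 TPM for all 20010 features tested, and 31 of the 47 lay under 5 TPM. Just inside the limit of 1 TPM stood ATCG00340 with a mean of 1.085 TPM, and just outside it ATCG00730 with 0.9925 TPM. Of the 47, 41 were above 0 in every library and 6 were listed at 0 in at least 1. The libraries also agreed less over these features than over the table. Across the 47, Pearson correlations of log2(TPM + 1) ran from 0.439 to 0.766 for the 6 pairs of libraries. They ran from 0.312 to 0.738 over the 41 distinct profiles and from 0.903 to 0.946 over all tested features. Genes are not independent replicates, and low levels and copies are shared by these points. The median SD within a genotype was 0.481 on the log2(TPM + 1) scale for the 47 features and 0.342 for all tested.

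**Figure D2:**
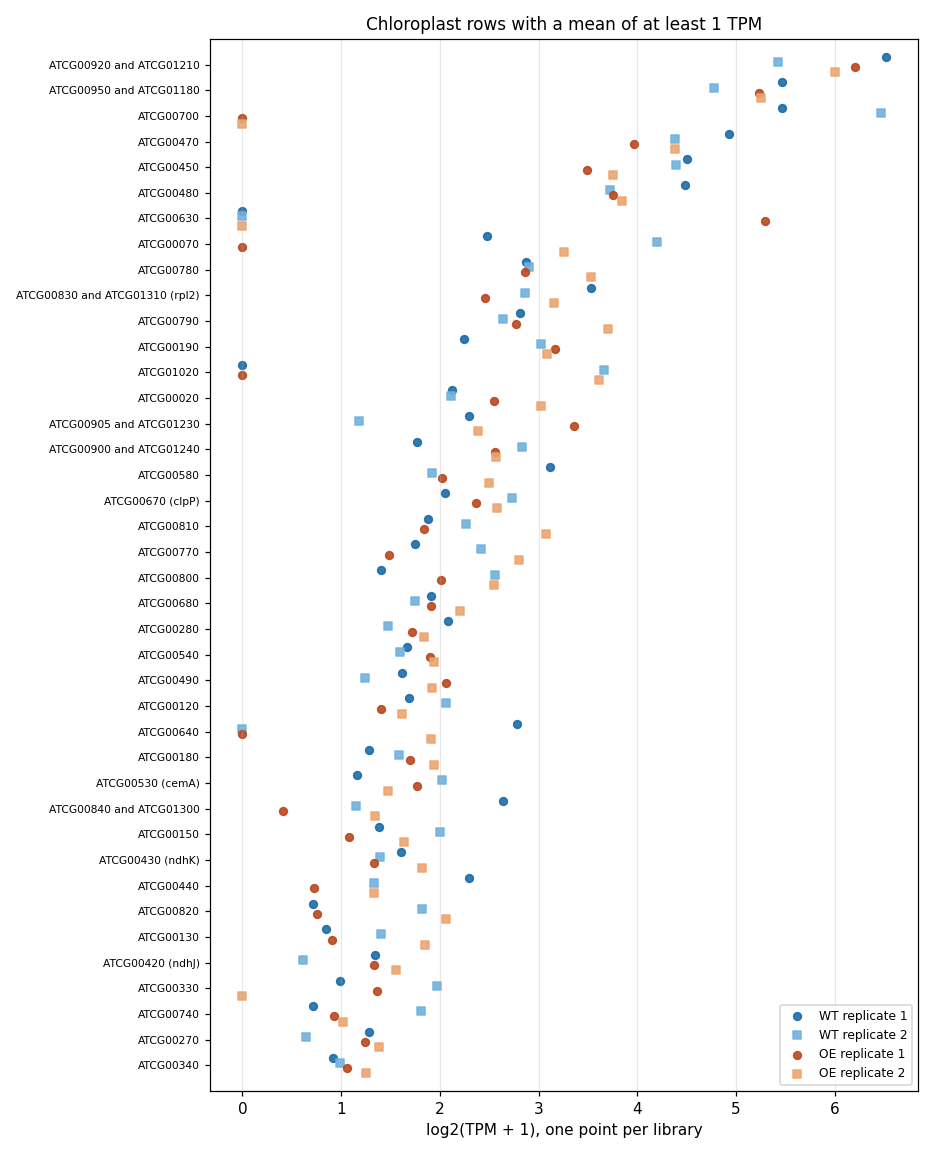
Each of the 40 lines, out of 41 distinct profiles, is a chloroplast feature, or a pair of identical features, averaging 1 TPM or more, ordered by mean level, and each point is 1 library on the log2(TPM + 1) scale (blue WT, orange OE, circles replicate 1, squares replicate 2, set apart vertically). ATCG00700 stands at 0 in both OE libraries, and ATCG00630 is above 0 in OE replicate 1 alone.

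Between the genotypes, 1 of the 47 features passed the test, ATCG00700, which was listed at 0 in both OE libraries. It passed the limit of 1 TPM through its WT values alone, and its call did not hold in every alternative fit, as described below. The test was limma on log2(TPM + 1) with Benjamini-Hochberg adjustment over all 20010 tested features, at an adjusted p of 0.05, and it called 0.09% of all tested features, 0.03% as lower and 0.06% as higher in OE. The other 46 had adjusted p-values of 0.878 or more. At an unadjusted p under 0.05 there were 4 of the 47 (8.51%), 2 higher and 2 lower in OE, beside 5.3% of all tested features, 2.69% higher and 2.61% lower. The 2 lower were ATCG00700 and ATCG00450. The 2 higher were an identical pair, so by distinct profiles there were 3 of 41 (7.32%), 1 higher and 2 lower. The median difference over the 47 was 0.12 on the log2 scale and that over all tested features -0.016. Of the 47, 30 (63.8%) had a difference above 0, beside 48.3% of all tested, and with identical pairs counted once 26 of 41 (63.4%).

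ATCG00700 stood at 43.3 TPM in WT replicate 1 and at 87.5 TPM in WT replicate 2, while each OE library listed it at 0. The groups did not overlap, and by mean over all 4 libraries it ranked 5671 among the 20010 tested features. The fitted difference was -5.97 on the log2(TPM + 1) scale (SE 0.420, limma adjusted p = 0.000534). The feature passed the limit of 1 TPM through its WT values alone. Its OE values, both listed at 0, leave no spread within OE, which lowers the SE and the p-value. No fold is given against a group listed at 0, since a 0 in such a table can be a failed estimate and the fitted size depends on the value added before the logarithm. It was -9.27 with 0.1 TPM added and -3.74 with 5 TPM added.

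The call on ATCG00700 was lost in 5 of 15 alternative fits, and its sign was negative in all 15. The limma adjusted p was 0.272 without WT replicate 1, 0.265 without WT replicate 2, 0.253 with no filter on low values, 0.119 with quantile normalization and 0.0987 with median-ratio scaling. In these 5 fits limma called 0 of all tested features, with 1072 to 1707 at an unadjusted p under 0.05, and the difference of ATCG00700 lay between -6.47 and -5.47. Of its neighbours by identifier, ATCG00690 and ATCG00710 were listed at 0 in all 4 libraries, so they allow no comparison of the genotypes. ATCG00680 had 2.77 and 2.36 TPM in WT against 2.75 and 3.61 TPM in OE, so its groups overlapped.

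Some other features also switched between 0 and clear values, without following the genotype. ATCG00630 had 38.3 TPM in OE replicate 1 and was listed at 0 in the other 3 libraries. ATCG01020 was listed at 0 in replicate 1 of both genotypes and had 11.7 TPM in WT replicate 2 and 11.2 TPM in OE replicate 2. ATCG00070 had 4.58 and 17.4 TPM in WT, was listed at 0 in OE replicate 1 and had 8.58 TPM in OE replicate 2. ATCG00630 and ATCG01020 show that a listed 0 beside values of 10 TPM or more occurred between libraries of 1 genotype as well as between genotypes. ATCG00640, with 5.86 TPM in WT replicate 1 and 2.77 TPM in OE replicate 2, and ATCG00330, with 0.98 and 2.92 TPM in WT against 1.58 TPM in OE replicate 1, were the other features listed at 0 in at least 1 library. When OE replicate 2 was left out, ATCG00630 (limma adjusted p = 1.91e-05) and ATCG00070 (limma adjusted p = 0.0195) were called too, and in that fit the spread within OE comes from no second library.

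**Figure D3:**
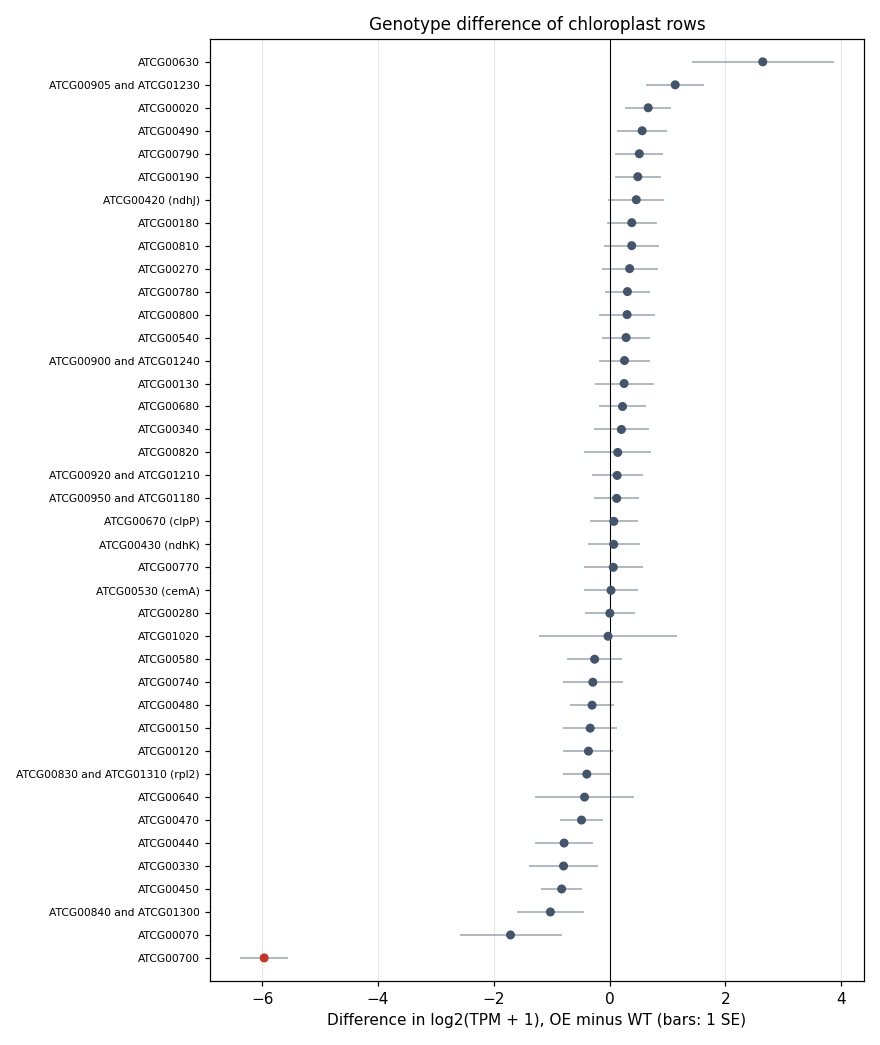
Points give the difference between OE and WT in mean log2(TPM + 1) for 40 of the 41 distinct chloroplast profiles, with bars of 1 SE from limma; the red point passed the adjusted p of 0.05. Apart from ATCG00700 and ATCG00630, each listed at 0 in 1 genotype, the differences lie between -1.71 and 1.13.

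In 8 of the 47 features (17.0%) both OE libraries lay above both WT libraries, and in 4 (8.51%), ATCG00700 among them, both lay below. Over all tested features these shares were 13.7% and 14.2%. Among the 41 distinct profiles they were 17.1% and 9.76%. The differences described next did not pass the test over all genes.

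Among those higher in OE, the identical features ATCG00905 and ATCG01230 had 3.90 and 1.26 TPM in WT against 9.23 and 4.22 TPM in OE, with the OE mean at 2.61 times the WT mean. The spread within each genotype was wide, and the higher WT value came close to the lower OE value (log2 difference 1.13, SE 0.502, limma adjusted p = 0.914). ATCG00020 was tighter in WT, with 3.37 and 3.31 TPM, and had 4.85 and 7.13 TPM in OE, 1.79 times the WT mean (limma adjusted p = 1.0). ATCG00490 had 2.07 and 1.36 TPM in WT against 3.19 and 2.78 TPM in OE, a ratio of 1.74, and ATCG00190 had 3.74 and 7.13 TPM in WT against 7.95 and 7.48 TPM in OE, a ratio of 1.42. For ATCG00190 the gap between the groups was smaller than the spread within WT.

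Among those lower in OE, ATCG00450 had 21.6 and 20.1 TPM in WT against 10.2 and 12.5 TPM in OE. Its libraries agreed well within each genotype, and the OE mean was 0.545 of the WT mean (log2 difference -0.83, SE 0.352, limma adjusted p = 0.878). ATCG00470 had 29.4 and 19.9 TPM in WT against 14.6 and 19.8 TPM in OE, so that WT replicate 2 and OE replicate 2 nearly met. ATCG00120 had 2.22 and 3.17 TPM in WT against 1.65 and 2.06 TPM in OE, a ratio of 0.688. ATCG00480, chosen after its values were seen because it stands beside ATCG00470 in number and level, had 21.4 and 12.2 TPM in WT against 12.5 and 13.4 TPM in OE, and its groups overlapped. Together ATCG00450, ATCG00470 and ATCG00480 summed to 72.3 and 52.1 TPM in WT and to 37.3 and 45.6 TPM in OE. ATCG00450 and ATCG00470 were named for groups that did not overlap, so the order of these sums follows in part from that choice.

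Of these named genes, clpP, ndhJ, ndhK, cemA and rpl2 passed 1 TPM, and none of them changed between the genotypes by the test. They were chosen for mention because a name was at hand, not for their values. The limma adjusted p was 1.0 after rounding for each of the 5.

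The gene clpP encodes the plastid-encoded proteolytic subunit of the Clp protease, the main protease of the chloroplast stroma. It had 3.16 and 5.65 TPM in WT against 4.14 and 4.96 TPM in OE. The OE libraries lay within the range of the WT libraries. The log2 difference was 0.074 (SE 0.410).

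The genes ndhJ and ndhK encode subunits of the chloroplast NDH complex, which takes part in cyclic electron flow around photosystem I. Transcripts of ndhJ stood at 1.54 and 0.53 TPM in WT and at 1.51 and 1.94 TPM in OE, with WT replicate 2 lowest. Those of ndhK stood at 2.05 and 1.63 TPM in WT and at 1.51 and 2.53 TPM in OE, with OE on either side of WT. The log2 differences were 0.46 (SE 0.486) for ndhJ and 0.072 (SE 0.448) for ndhK. The note in the annotation calls ATCG00430 photosystem II reaction center protein G, an older name of the same gene.

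The gene cemA encodes a protein of the inner envelope membrane linked to proton and inorganic carbon exchange. It had 1.24 and 3.07 TPM in WT against 2.41 and 1.77 TPM in OE. Its groups overlapped, and its log2 difference was 0.026 (SE 0.471).

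The genes rpl2 and rpl20 encode proteins of the large subunit of the chloroplast ribosome. For rpl2 the values were 10.6 and 6.28 TPM in WT against 4.50 and 7.89 TPM in OE, and ATCG00830 had the same value in each library. WT replicate 1 was the highest library and OE replicate 1 the lowest. The log2 difference was -0.39 (SE 0.415). Below the limit of 1 TPM, rpl20 was listed at 0 in replicate 1 of both genotypes and had 2.40 TPM in WT replicate 2 and 0.63 TPM in OE replicate 2.

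Apart from ndhJ, each named gene has a relative in the nucleus, whose listed TPM was higher in the same libraries. How RNA was selected is not known, so the ratios below compare listed values and not transcript numbers in the leaf. CLP2 (AT1G12410), a nuclear-encoded subunit of the Clp protease, had a mean of 145 TPM over the 4 libraries, 32.3 times that of clpP. The mitochondrial NADH-ubiquinone oxidoreductase subunit AT5G11770 had a mean of 203 TPM, 105 times that of ndhK. For the smallest ratio, the ribosomal protein L2 family gene AT2G44065 had a mean of 46.8 TPM, 6.40 times that of rpl2. In single libraries this ratio ran from 3.72 to 10.4. Both use ATCG01310 alone. ATCG00830 had the same value in each library, so a ratio to the pair together would be lower. The CemA-like gene AT4G31040 stood at 52.9 TPM, 24.9 times cemA. AT1G16740, a ribosomal protein L20 gene, had a mean of 73.3 TPM, 96.7 times that of rpl20. These 5 nuclear genes were taken from the annotation notes. In every library each nuclear gene stood above its chloroplast relative. None of the 5 nuclear genes passed the test between the genotypes (limma adjusted p = 1.0 for each).

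**Figure D4:**
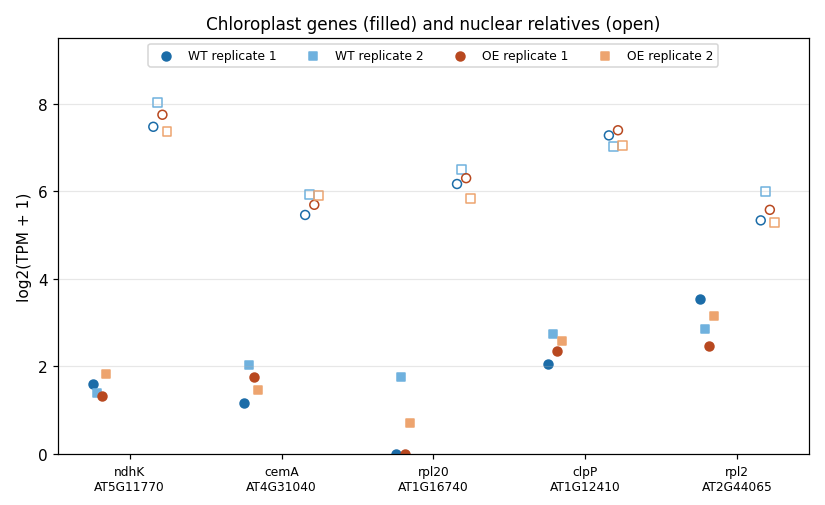
Filled points show 5 named chloroplast genes and open points the nuclear relative of each, as log2(TPM + 1) with 1 point per library (colours and shapes as labelled). The open points lie above the filled points of the same gene in every library.

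The features numbered ATCG00760 to ATCG00820 were 7 in all, and 6 of them passed 1 TPM. They were chosen after their values were seen. All 6 were higher in OE replicate 2 than in OE replicate 1, by 1.60 to 4.59 times, and 5 of the 6 were higher in WT replicate 2 than in WT replicate 1. ATCG00770 had 2.35 and 4.34 TPM in WT against 1.80 and 5.99 TPM in OE. ATCG00820 had 0.64 and 2.53 TPM in WT against 0.69 and 3.17 TPM in OE. ATCG00790, the exception in WT, had 6.02 and 5.22 TPM in WT against 5.83 and 12.1 TPM in OE. In all 6 the groups overlapped, with log2 differences between genotypes of 0.065 to 0.51. Over all 47 features, 37 were higher in OE replicate 2 than in OE replicate 1, and 21 were higher in WT replicate 2 than in WT replicate 1.

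Of the 29 features above 0 but below the mean of 1 TPM, which were not tested, 3 (10.3%) had both OE libraries above both WT libraries and 7 (24.1%) had both below. Over all 5044 features of the table that were above 0 somewhere but below the limit, these shares were 8.90% and 13.0%. The chloroplast shares count both copies of identical pairs. ATCG00890 and ATCG01250, both among the 3, were such a pair, so counting it once would lower the 10.3%. No single value among the 29 exceeded 3.96 TPM. ATCG00730, the highest by mean, had 1.01 and 2.25 TPM in WT against 0.37 and 0.34 TPM in OE. All 86 features below the limit, those at 0 included, together summed to 8.61 and 17.6 TPM in WT and to 8.97 and 8.30 TPM in OE.

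The nuclear genes that act on chloroplast transcripts were read from the same fit. Of 57 listed as sigma factors and polymerases, polymerase-associated proteins, RNA-binding and decay factors and editing factors, 52 were tested, and 0 were called in either direction by limma over all genes. At an unadjusted p under 0.05, 1 was higher and 1 was lower in OE, both of them sigma factors. The median log2 difference of the 52 was -0.10, beside -0.016 for all tested features.

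Sigma factors guide the plastid-encoded polymerase to its promoters. SIG1 (SIGA, AT1G64860) had 130 and 85.8 TPM in WT against 50.3 and 36.8 TPM in OE, and SIG4 (AT5G13730) had 24.5 and 29.2 TPM in WT against 56.4 and 53.3 TPM in OE. In SIG1 both OE libraries lay below both WT libraries, and in SIG4 both lay above. The log2 differences were -1.27 (SE 0.405, limma adjusted p = 0.526) for SIG1 and 1.01 (SE 0.362, limma adjusted p = 0.655) for SIG4, so neither passed over all genes. SIG4 is known for transcription of ndhF, a gene of the NDH complex, whose feature is not named in the sources used here.

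The other 4 sigma factors had overlapping groups. SIG2, known for transfer RNA genes, had 112 and 79.7 TPM in WT against 111 and 85.1 TPM in OE. SIG3 had 38.3 and 46.9 TPM in WT against 45.3 and 35.2 TPM in OE. SIG5, which responds to light and stress and serves a promoter of psbD, had 55.7 and 48.4 TPM in WT against 58.6 and 40.7 TPM in OE, and SIG6, active in early seedling growth, had 72.1 and 57.3 TPM in WT against 69.5 and 59.9 TPM in OE. The phage-type polymerase SCA3 had 12.03 and 17.4 TPM in WT against 11.3 and 10.1 TPM in OE, both OE libraries below WT. AT5G15700, of the same polymerase superfamily, had 3.89 and 6.80 TPM in WT against 4.61 and 3.02 TPM in OE. Log2 differences of these 6 genes lay between -0.41 and 0.040 (limma adjusted p = 1.0 for each).

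**Figure D5:**
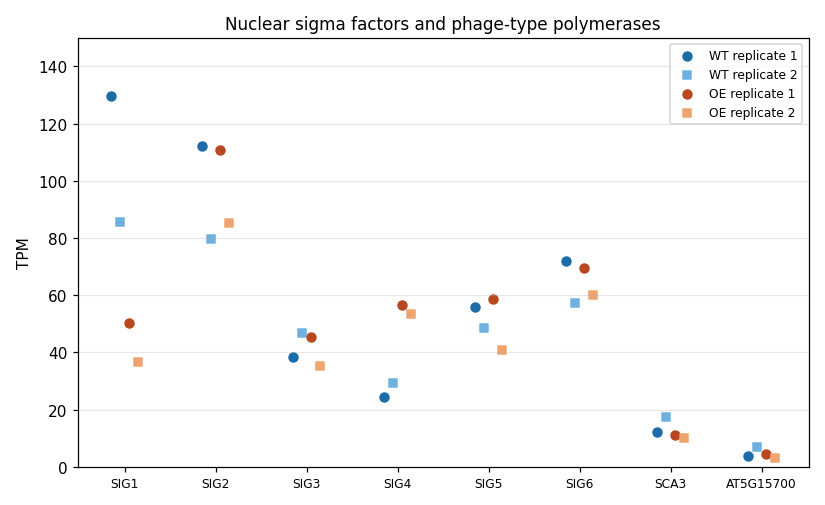
Points show TPM per library for 6 nuclear sigma factors and 2 phage-type polymerase genes (colours and shapes as labelled). In SIG1 both OE points lie below both WT points and in SIG4 both lie above; the difference did not pass the test over all genes for either.

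Proteins that assemble with the plastid-encoded polymerase are needed for its activity in the light. All 12 were tested, 6 with a difference above 0 and 6 below, and 0 were called. The smallest p-values belonged to PTAC2, with 25.2 and 23.6 TPM in WT against 17.0 and 13.4 TPM in OE, to the thioredoxin TRX z, with 22.3 and 16.1 TPM in WT against 40.1 and 23.0 TPM in OE, and to MURE, with 21.2 and 16.3 TPM in WT against 15.8 and 11.4 TPM in OE. In these 3 genes the groups did not overlap, but no limma adjusted p was below 1.0 after rounding. Over the 12, both OE libraries lay above both WT libraries in 2 (16.7%) and below in 2 (16.7%), beside 13.7% and 14.2% of all tested features.

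Of 19 genes for RNA binding, stability and decay, 9 had a difference above 0 and 10 below, and 0 were called. HCF152, a pentatricopeptide repeat protein that acts on transcripts of the psbB operon, had 14.9 and 19.3 TPM in WT against 12.04 and 9.71 TPM in OE. CRR2, needed to process an ndhB precursor, had 12.4 and 16.1 TPM in WT against 11.9 and 7.10 TPM in OE. AT5G46580, another pentatricopeptide repeat gene, had 85.3 and 68.1 TPM in WT against 64.8 and 38.9 TPM in OE. In all 3, named for the smallest p of the 19, the OE libraries lay below the WT libraries. Over the 19, both OE libraries lay below both WT libraries in 5 (26.3%) and above in 3 (15.8%), beside 14.2% and 13.7% of all tested features.

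Of 18 editing factors, which direct the change of single cytidines to uridines in chloroplast RNA, 13 were tested, 4 with a difference above 0 and 9 below, and 0 were called. LPA66, which edits psbF transcripts, had 15.5 and 13.3 TPM in WT against 9.92 and 7.13 TPM in OE. CRR21, which edits ndhD transcripts, had 10.1 and 7.27 TPM in WT against 5.80 and 5.04 TPM in OE. VAC1 had 4.76 and 7.82 TPM in WT against 5.17 and 3.32 TPM in OE, and its groups overlapped. Over the 52 tested regulators, both OE libraries lay above both WT libraries in 7 (13.5%) and below in 13 (25.0%), where the shares over all tested features were 13.7% and 14.2%.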

How the data were processed

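The values are the TPM of each gene as deposited by the authors, 1 column per library; 2 further columns with genotype means were not used. The tools named in the submitters' processing notes are RSEM, HISAT and fastp, without version or role, and for build, annotation and filters the sources used here give nothing. WT replicate 2 is the column whose name the label gives, although that name carries another number. Depth is unknown, since TPM keeps no read number.

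Features averaging 1 TPM or more across all 4 libraries were tested on log2(TPM + 1), which understates changes of low genes, with limma 3.58.1 in R 4.3.3: variance trend, genotype as the only term, two-sided, Benjamini-Hochberg adjusted p of 0.05 over all 20010 features. The fit had 2 residual degrees of freedom, to which the prior added 8.73. The script was tested on simulated data with the same spread for every feature, taken from the WT libraries. That test does not cover a feature without spread within OE, such as ATCG00700. BLAST 2.17.0 (E-value limit 1e-05) compared nuclear with chloroplast proteins of TAIR10.1. For 1 member no values are reported here or drawn, though counts and sums include it; no coordinates or sequences are given, because the build of the table is not named. Figures were drawn with matplotlib 3.10.9 in Python 3.11.15.

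The members and gene lists were chosen with earlier results of these data known. Named were members that passed the test, up to 5 per direction with the largest difference and no overlap of the groups, the annotated members, all sigma factors and polymerases, and the 3 genes of smallest p in each other regulator list; others are said to be chosen after their values were seen. Parts of that rule that need gene names (functional groups, classes by polymerase, sigma factor targets) were not applied, because most identifiers carry no name here. Nuclear genes carry RefSeq symbols or synonyms, or the locus where it gives none. Alternatives changed the added value, the filter, the scaling, the variance prior, the replicate block and the libraries used; counting identical features once and leaving out ATCG00700 and ATCG00630 were chosen after seeing the data.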

Additional observations from a re-analysis of the deposited data

How the results depend on the processing

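The number of chloroplast features called was 1 in the comparison as designed. It was 0 with no filter on low values, 0 with quantile normalization, 0 with median-ratio scaling and 3 with the replicate number as a block, where ATCG00630 and ATCG00070 joined ATCG00700. Leaving out 1 library gave 0 to 3: 0 without either WT replicate, 1 without OE replicate 1 and 3 without OE replicate 2. These moves ran through the whole table: all features called were 18 as designed, 0 in the first 3 of these fits and without either WT replicate, 338 with the block, 147 without OE replicate 1 and 51 without OE replicate 2. Replicate numbers were not taken to pair the libraries, since the labels name no shared batch and deviations of same-numbered libraries correlated at 0.033 over 20010 features, although at 0.24 over the 47 chloroplast features. The cause of these differences was not tested. The log2 ratio of summed chloroplast TPM was -0.19, from -0.31 to -0.058 without 1 library, 0.024 without ATCG00700, a change of sign, and -0.045 without ATCG00700 and ATCG00630. The median log2 difference lay between -0.033 and 0.26 without 1 library, where the median of all tested features moved to between -0.16 and 0.14. Regulators called stayed at 0 in each fit. Small differences changed sign: cemA to -0.0027 with 5 TPM added, SIG2 (AT1G08540) to -0.0027 and SIG6 (AT2G36990) to -0.043 with quantile normalization. Without 1 library the log2 difference ran from -0.41 to 0.46 for cemA, -0.26 to 0.41 for clpP, -0.17 to 0.32 for ndhK, -0.20 to 0.28 for SIG2, -0.26 to 0.095 for SIG3, -0.34 to 0.17 for SIG5 and -0.16 to 0.17 for SIG6. It kept its sign but moved by over 1.5 times for ATCG00905 (0.58 to 1.69), ATCG00020 (0.43 to 0.91), ATCG00490 (0.37 to 0.75), ATCG00190 (0.10 to 0.88), ATCG00470 (-0.75 to -0.21), ATCG00120 (-0.55 to -0.18), ndhJ (0.097 to 0.83), rpl2 (-0.74 to -0.046), SCA3 (AT2G24120, -0.65 to -0.16) and AT5G15700 (-0.72 to -0.042). Removal of organelle ribosomal and transfer RNA was not run, because most chloroplast identifiers carry no name here. Depth is unknown, so no limit can be set on a listed 0.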
